A study of Mus musculus with 32 samples.

Results

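The genes described here encode the contractile apparatus of muscle and the proteins that release, store and pump its calcium. They were taken by symbol: every myosin light or heavy chain (Myl, Myh), troponin (Tnnc, Tnni, Tnnt), tropomyosin (Tpm), alpha-actinin (Actn), myosin-binding protein (Mybpc, Mybph), myomesin (Myom), myozenin (Myoz), calsequestrin (Casq), ryanodine receptor (Ryr) and SERCA pump (Atp2a) gene. A further 10 genes were searched by name, of which Actc1, Ckm, Pvalb, Tcap, Pln, Des and Mb were found. This gave 49 genes on 66 probes, out of 9030 named genes and 20794 probes. Of the 49 genes, 46 could be tested in eye, 46 in brain and 43 in heart, and the others had too many missing values.

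The series compared RNA from eye, brain and heart of sighted C3H mice with RNA of the same organ from male control mice labelled C3H.pde6b-, the strain background with inherited degeneration of the retina. Each of 32 cDNA arrays carried labelled cDNA of 1 sighted sample and of a pool of 6 control males, with 12 arrays for eye, 12 for brain and 8 for heart. One set of 6 males supplied the control pools of brain and heart, and a different set of 6 supplied the eye pool, per the labels. Arrays of consecutive number and opposite dye were averaged to a replicate, so that eye and brain had 6 replicates each and heart had 4. The labels give neither the age of the mice nor which muscles or other tissues were left on the dissected eye.

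In striated muscle, thick filaments of myosin slide past thin filaments of actin that are anchored in the Z disc. Calcium leaves the sarcoplasmic reticulum through the ryanodine receptor, binds troponin C and so moves troponin and tropomyosin off the myosin sites, and SERCA pumps then return it to the store. Most of these proteins exist as separate isoforms for fast skeletal, slow skeletal, cardiac, smooth and nonmuscle cells, and each is usually encoded by its own gene. The muscles that move the eyeball and the lid are striated, whereas those of the iris and ciliary body are smooth in mammals.

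Every value below is a log2 ratio of sighted over control RNA, so that a negative value stands for less RNA in sighted mice and a positive value for more. A ratio carries no level, and the identity of a tissue therefore could not be checked by how strongly its markers were expressed. The direction of the deposited ratio is likely and not stated: on the eye arrays that had Cy5 on the sighted RNA, 7 rod photoreceptor genes had deposited medians between 4.71 and 5.42, and where Cy3 was on the sighted RNA these were between -4.37 and -3.82. Those rod genes set the direction and are no evidence for it. Missing values made up 1.96 to 5.96% of an eye array, 1.21 to 6.10% of a brain array and 6.75 to 61.58% of a heart array, the highest share lying on an array of heart replicate 4. Tests within an organ used limma with Benjamini-Hochberg adjustment over all genes and unnamed probes of that organ. A gene was called at an adjusted p under 0.05. The control RNA of an organ is a single pool, so the p-values leave out the spread among control mice. They reflect only how far these replicates differ, and some of that spread may be technical.

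In sighted eyes 27 of the 46 tested genes fell and 3 rose. Among all 15874 genes and probes tested in eye 11% were called lower, 15.9% higher and 26.8% in either direction, while the members were called lower in 58.7% and higher in 6.52%. The median of the 46 members was -0.50, against 0.027 over everything tested. The genes that fell were lower by 1.23- to 2.41-fold with adjusted p between 9.47e-05 and 0.0300, and 6 of them were lower by more than 2-fold. In 25 of the 27 every measured replicate was below 0, the exceptions being Pln and Myh11, each just above 0 in replicate 1. The 3 genes that rose were Actn2, the alpha-actinin of all striated muscle fibres, Pvalb, a calcium buffer of fast fibres and of some neurons, and Atp2a2, the SERCA pump of slow and cardiac muscle and of nonmuscle cells. All 3 were above 0 in every replicate. Of the 16 genes that were not called, 15 had a mean below 0, and their adjusted p lay between 0.0715 and 0.794. In RNA from a whole organ, fewer cells of a type and less RNA per cell cannot be told apart.

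**Figure D1:**
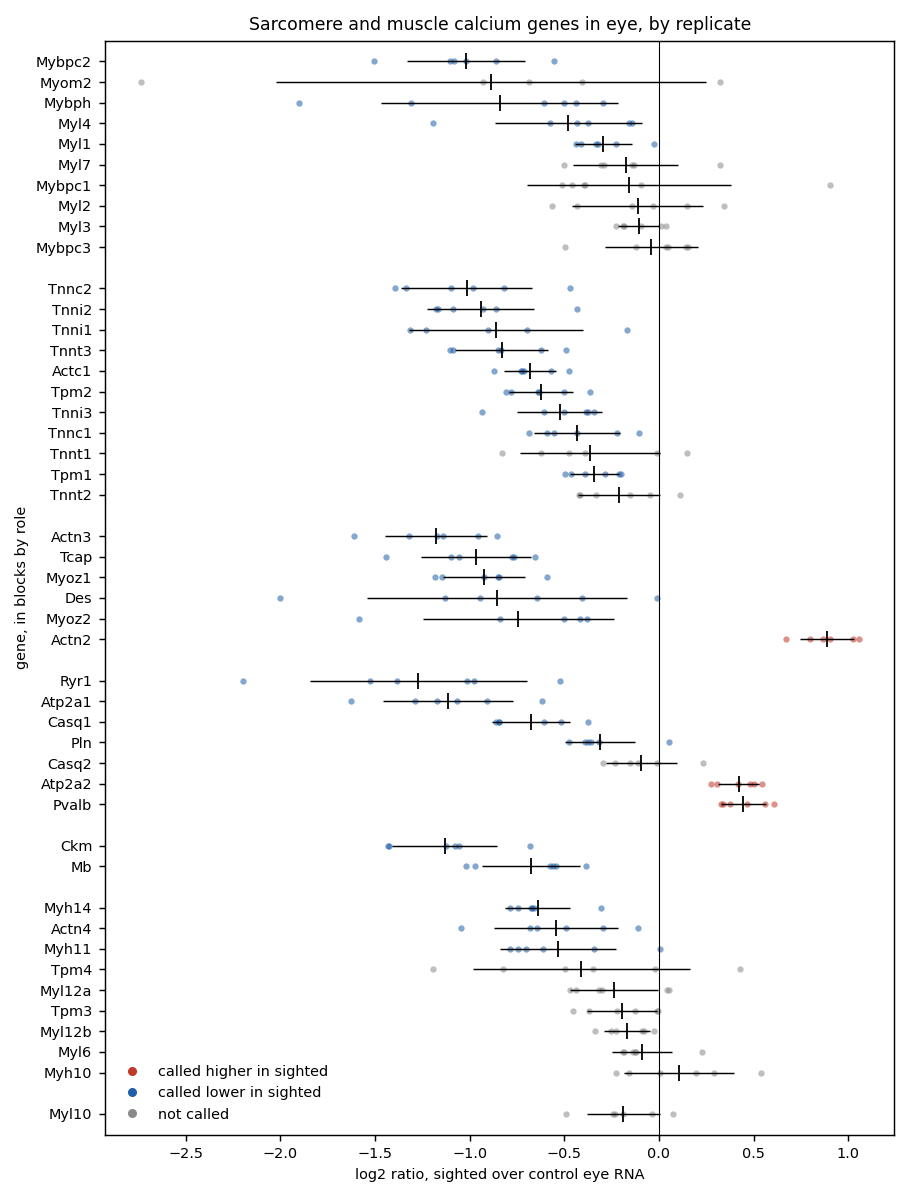
Log2 ratio of sighted over control RNA in eye (horizontal axis) for the 46 tested genes in blocks by role, with 1 point per replicate, a tick at the mean and a bar of 1 SD. Blue marks the 27 genes called lower, red the 3 called higher and grey the 16 not called, and nearly all blue points lie left of 0.

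The promoters of 4 of these genes are shown because the genes moved together or in opposite directions: Ckm and Atp2a1 are among those that fell, and Actn2 and Pvalb among those that rose. Each is the 250 bases before the annotated start, from RefSeq on GRCm38.p6, read along the gene. Ckm lies at chr7:19410844-19411093 on the plus strand, Atp2a1 at chr7:126463074-126463323 on the minus strand, Actn2 at chr13:12340733-12340982 on the minus strand and Pvalb at chr15:78206401-78206650 on the minus strand, the first of 2 listed starts. Capitals mark E boxes, searched as CANNTG on both strands, and in Pvalb a motif of the MEF2 type, which begins 180 bases before the start. An E box is a general motif of helix-loop-helix factors, of which the myogenic ones are only a part.
Ckm: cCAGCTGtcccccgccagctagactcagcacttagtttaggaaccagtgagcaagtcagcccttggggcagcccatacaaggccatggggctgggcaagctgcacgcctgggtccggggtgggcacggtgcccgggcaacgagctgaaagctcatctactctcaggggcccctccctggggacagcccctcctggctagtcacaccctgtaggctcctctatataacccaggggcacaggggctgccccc
Atp2a1: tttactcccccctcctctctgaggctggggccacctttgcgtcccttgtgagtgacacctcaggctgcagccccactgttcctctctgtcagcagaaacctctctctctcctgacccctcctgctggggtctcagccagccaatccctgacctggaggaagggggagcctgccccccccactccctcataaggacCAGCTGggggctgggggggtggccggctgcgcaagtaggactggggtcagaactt
Actn2: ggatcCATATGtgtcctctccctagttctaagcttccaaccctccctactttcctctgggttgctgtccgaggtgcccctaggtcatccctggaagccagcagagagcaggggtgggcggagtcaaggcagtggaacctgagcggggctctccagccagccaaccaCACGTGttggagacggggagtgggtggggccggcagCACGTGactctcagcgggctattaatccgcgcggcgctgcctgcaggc
Pvalb: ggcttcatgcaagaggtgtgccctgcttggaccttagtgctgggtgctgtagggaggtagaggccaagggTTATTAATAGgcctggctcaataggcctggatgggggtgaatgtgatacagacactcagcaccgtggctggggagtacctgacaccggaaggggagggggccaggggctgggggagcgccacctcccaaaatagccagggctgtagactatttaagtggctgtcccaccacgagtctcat
The window of Actn2 holds 3 E boxes, those of Ckm and Atp2a1 hold 1 each and that of Pvalb holds 0. An E box occurs in 66.2% of all 32851 such windows in the table, and in 41 of the 51 windows listed for 40 of the members, or 80.4%. Matches describe the sequence and are no binding sites, and the motifs were searched separately, so matches may overlap. The MEF2 motif occurs in 2.92% of all windows and in 4 of the 51, and the box TATAAA in 12.4% and in 5 of the 51. The CArG box, the serum response factor motif of many muscle genes, occurs in 1.47% of all windows and in 5 of the 51. Counted by gene, with several starts for some, 18 of the 21 genes that fell and had a window held an E box and 1 a MEF2 motif. Among all 40 members with a window 34 held an E box and 4 a MEF2 motif, so the E box did not set the genes that fell apart. Over all genes the shares were counted by window only.

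Thick filament genes of striated muscle fell in 4 of 10 cases, with a median of -0.23, and 0 rose. Mybpc2, the fast isoform of myosin-binding protein C, had replicate values of -0.55, -1.08, -0.86, -1.02, -1.10 and -1.51. All 6 were below 0, and the mean was -1.02 ± 0.31 (SD, n = 6), a fall of 2.03-fold at a limma adjusted p of 0.000364. Mybph, the myosin-binding protein H gene, was called with a wider spread between replicates, at -0.84 ± 0.63 (SD, n = 6) and an adjusted p of 0.0179 in limma. This call was lost when single arrays were fitted, with limma adjusted p of 0.0642 with the pair of opposite dye as a random block and 0.0944 with a dye term. It was also lost in either dye orientation alone, at limma adjusted p of 0.0615 with Cy5 and 0.302 with Cy3. Myl4, the essential light chain of the atria and of developing muscle, fell at -0.48 ± 0.39 (SD, n = 6), and Myl1, the fast essential light chain, fell at -0.29 ± 0.15 (SD, n = 6). The other genes of the slow and cardiac thick filament were not called. Mybpc3, the cardiac myosin-binding protein C, had the mean closest to 0, from 0.04, -0.50, 0.14, 0.05, -0.12 and 0.15. They lay on both sides of 0, with a mean of -0.04 ± 0.24 (SD, n = 6) and an adjusted p of 0.794 in limma. Mybpc1, the slow isoform, averaged -0.16 ± 0.54 (SD, n = 6), but without replicate 6 it was called lower, at -0.37 with an adjusted p of 0.0148 in limma. Myl2, the ventricular and slow regulatory light chain, averaged -0.11 ± 0.34 (SD, n = 6), and Myl3, the matching essential light chain, -0.11 ± 0.11 (SD, n = 6). Myl7, the atrial regulatory light chain, had -0.18 ± 0.28 (SD, n = 6). Myom2, which encodes an M band protein, spread from -2.74 to 0.32 over 5 replicates. Myh7, the slow and beta-cardiac myosin heavy chain, was not tested in eye because only 4 replicates had a value, and these were -0.23, -0.87, -0.84 and -1.05. Myom1, which encodes the M band protein myomesin, had values in 3 replicates, namely 0.19, 0.39 and 0.32. Neither is counted above.

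On the thin filament 9 of 11 genes fell, 0 rose, and the median was -0.62. Tnnc2, the calcium-binding subunit of fast troponin, had -0.47, -1.34, -0.82, -0.98, -1.10 and -1.39 in the 6 replicates. Replicate 1 was the nearest to 0 and replicate 6 the farthest, and the mean of -1.02 ± 0.34 (SD, n = 6) amounts to 2.02-fold. Tnni2, the inhibitory subunit of fast troponin, had -0.43, -1.17, -0.86, -1.09, -0.93 and -1.18. It showed the same order of replicates at both ends, with a mean of -0.94 ± 0.28 (SD, n = 6). Tnnt3, the fast subunit that binds tropomyosin, fell by a mean of 0.83 on the log2 scale, with every replicate between -1.10 and -0.49. Tnni1, the slow inhibitory subunit, was measured in 5 replicates, at -0.90, -1.31, -1.23, -0.70 and -0.17 in replicates 1 and 3 to 6. These were all below 0 but uneven, with a mean of -0.86 ± 0.46 (SD, n = 5) and an adjusted p of 0.00769 in limma. The call was lost when single arrays were fitted, with limma adjusted p of 0.0524 with the pair of opposite dye as a random block and 0.0814 with a dye term. With the values at an array's ceiling kept, which were otherwise set to missing, the mean was -2.15 and the adjusted p 0.210, and either dye orientation alone gave 0.0971 with Cy5 and 0.231 with Cy3 in limma.

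The cardiac and tropomyosin genes of the thin filament had means nearer to 0. Actc1, the cardiac alpha-actin gene, had the smallest p of the group, with -0.57, -0.73, -0.48, -0.72, -0.87 and -0.71. The replicates were close together, and the mean was -0.68 ± 0.14 (SD, n = 6), 1.6-fold lower at an adjusted p of 0.000205 in limma. Tpm2 and Tpm1, the beta and alpha tropomyosin genes, fell at -0.62 ± 0.17 (SD, n = 6) and -0.34 ± 0.13 (SD, n = 6). Tnni3, the cardiac inhibitory subunit, fell at -0.53 ± 0.22 (SD, n = 6), and Tnnc1, the calcium-binding subunit shared by slow and cardiac muscle, at -0.43 ± 0.23 (SD, n = 6). The remaining members of the group did not pass. Tnnt2, the cardiac tropomyosin-binding subunit, had 0.11, -0.42, -0.05, -0.33, -0.15 and -0.42. Only replicate 1 was above 0, and the mean was -0.21 ± 0.22 (SD, n = 6) with an adjusted p of 0.109 in limma. Tnnt1, its slow counterpart, averaged -0.36 ± 0.37 (SD, n = 6) with an adjusted p of 0.0715.

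All 6 tested genes of the Z disc and of desmin were called, 5 lower and 1 higher, and the opposite signs fell on a pair of close relatives. Actn3, the alpha-actinin found in fast fibres only, had -0.86, -1.32, -0.96, -1.14, -1.17 and -1.61. Every replicate was below 0, with a mean of -1.18 ± 0.27 (SD, n = 6), or 2.26-fold lower, and a limma adjusted p of 9.47e-05, the smallest among the genes that fell. Actn2 had 0.87, 0.67, 0.90, 0.80, 1.05 and 1.02. Every replicate was above 0, and the mean of 0.89 ± 0.14 (SD, n = 6) is 1.85-fold higher with a limma adjusted p of 5.38e-05, the smallest of all members in eye. The 2 alpha-actinins thus did not overlap in any replicate. Myoz1, which binds calcineurin at the Z disc of fast fibres, had -0.59, -1.19, -0.85, -0.85, -0.93 and -1.14, all below 0. Tcap, the telethonin gene whose product caps titin, had -0.66, -1.44, -0.76, -1.10, -0.78 and -1.06, likewise all below 0. Their means were -0.92 ± 0.22 (SD, n = 6) for Myoz1 and -0.97 ± 0.29 (SD, n = 6) for Tcap. Myoz2, the slow and cardiac relative of Myoz1, fell at -0.74 ± 0.50 (SD, n = 5), where replicate 1 alone reached -1.58 and the others lay between -0.84 and -0.38. Its call was lost with single arrays and a dye term, at a limma adjusted p of 0.0720, and in either dye orientation alone, at 0.115 with Cy5 and 0.163 with Cy3. Des, the gene of the muscle intermediate filament desmin, fell at -0.86 ± 0.69 (SD, n = 6) and was the most uneven of the group, with -2.0 in replicate 1 and -0.01 in replicate 2. Myoz3 had values in 4 replicates, which ran from -1.0 to 3.75, and was not tested in eye.

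Of the 7 genes of calcium handling 4 fell, 2 rose and 1 was not called. Ryr1, the calcium release channel of skeletal muscle, had the lowest mean of all members, from -0.52, -2.20, -1.01, -0.98, -1.38 and -1.53. Replicate 2 was far lower than replicate 1, and the mean was -1.27 ± 0.57 (SD, n = 6), or 2.41-fold lower, with an adjusted p of 0.00171 in limma. Atp2a1, the SERCA pump of fast fibres, had -0.62, -1.29, -0.91, -1.07, -1.17 and -1.63. All were below 0, with a mean of -1.11 ± 0.34 (SD, n = 6) and a limma adjusted p of 0.000338. Its relative Atp2a2 had 0.50, 0.31, 0.42, 0.27, 0.48 and 0.54. All were above 0, with a mean of 0.42 ± 0.11 (SD, n = 6), 1.34-fold higher, and a limma adjusted p of 0.00154. Pvalb had 0.61, 0.33, 0.38, 0.34, 0.56 and 0.46. All were above 0, and the mean was 0.45 ± 0.12 (SD, n = 6), 1.36-fold higher, at a limma adjusted p of 0.00132. Pvalb is the only gene of the fast list that rose, while the other 9 fell. Casq1, the calcium-storing protein of the skeletal sarcoplasmic reticulum, fell at -0.68 ± 0.21 (SD, n = 6). Pln, phospholamban, which restrains the SERCA pump in heart and slow muscle, fell at -0.31 ± 0.19 (SD, n = 6). Casq2, the cardiac calsequestrin, had 0.23, -0.11, -0.16, -0.01, -0.29 and -0.23 and was not called, with a mean of -0.09 ± 0.19 (SD, n = 6) and an adjusted p of 0.426 in limma.

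Both genes of energy and oxygen supply fell. Ckm, the muscle creatine kinase that regenerates ATP at the myofibril, had -0.68, -1.43, -1.06, -1.08, -1.12 and -1.43. Replicates 2 and 6 were the lowest and replicate 1 the highest, with a mean of -1.13 ± 0.28 (SD, n = 6), 2.19-fold lower, and a limma adjusted p of 0.000136. Mb, the myoglobin gene, fell at -0.68 ± 0.26 (SD, n = 6), with replicates between -1.02 and -0.39.

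Isoforms of smooth muscle and of nonmuscle cells fell in 3 of 9 cases, with a median of -0.24, and 0 rose. Myh14, a nonmuscle myosin II heavy chain, had -0.66, -0.67, -0.31, -0.67, -0.79 and -0.75. Replicate 3 stood apart from the other 5, and the mean was -0.64 ± 0.17 (SD, n = 6) with a limma adjusted p of 0.00049. The fall of Myh14 was seen mainly in 1 dye orientation, at -1.26 with sighted RNA in Cy3. With sighted RNA in Cy5 it was -0.02 and not called, at a limma adjusted p of 0.858. Actn4, the nonmuscle alpha-actinin, fell at -0.55 ± 0.33 (SD, n = 6), and Myh11, the heavy chain of smooth muscle myosin, fell at -0.53 ± 0.31 (SD, n = 6) with 0.0040 in replicate 1. Myh10, another nonmuscle heavy chain, was the only member of the 16 without a call whose mean was above 0, at 0.20, 0.29, 0.54, 0.01, -0.16 and -0.23. Its replicates lay on both sides of 0, with a mean of 0.11 ± 0.29 (SD, n = 6) and an adjusted p of 0.506 in limma. The nonmuscle regulatory light chains Myl12a and Myl12b averaged -0.24 ± 0.23 (SD, n = 6) and -0.17 ± 0.12 (SD, n = 6), and the essential light chain Myl6 averaged -0.09 ± 0.16 (SD, n = 6). The tropomyosins Tpm3 and Tpm4 averaged -0.20 ± 0.19 (SD, n = 6) and -0.41 ± 0.57 (SD, n = 6). Myl10, a further regulatory light chain gene, had -0.19, -0.49, -0.24, -0.23, -0.04 and 0.07, a mean of -0.19 ± 0.19 (SD, n = 6) and an adjusted p of 0.124 in limma. None of these genes passed.

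Arranged by fibre type, fast isoforms had a lower median than slow and cardiac ones. Of 10 genes typical of fast fibres 9 fell and Pvalb rose, with a median of -0.93. Of 18 genes listed under slow fibres or heart 7 fell, 2 rose and 9 were not called, with a median of -0.20. That list holds Tpm3, which is also counted among the smooth muscle and nonmuscle isoforms, and Actn2, which all striated fibres share. Without Actn2 7 of 17 fell and 1 rose, with a median of -0.21. Both counts stand beside the 11% lower and 15.9% higher among all genes. Within families, 12 pairs of a fast gene and a relative from this list were set side by side. These pairs were chosen with the values known and share 9 fast genes, so they are a description and were not tested. The fast gene had the lower mean in all 12, and in 10 it was lower in every replicate. Without the alpha-actinins, whose Actn2 is not specific to slow fibres or heart, these counts were 11 of 11 and 9. The difference was -2.06 ± 0.33 between Actn3 and Actn2, with replicates between -2.64 and -1.73 (SD, n = 6). It was -1.53 ± 0.37 between Atp2a1 and Atp2a2, -0.98 ± 0.39 between Mybpc2 and Mybpc3, and -0.58 ± 0.32 between Tnnc2 and Tnnc1 (SD, n = 6 each). In the calsequestrins the difference was -0.58 ± 0.12, and between Tnnt3 and Tnnt2 it was -0.62 ± 0.07 (SD, n = 6 each). In 2 pairs the members were close: Tnni2 minus Tnni1 was -0.04 ± 0.62, lower in 2 of 5 replicates, and Myoz1 minus Myoz2 was -0.13 ± 0.64, lower in 4 of 5 (SD, n = 5 each). A cDNA probe can also bind the transcript of a close relative, which would draw the values of a pair together. Whether it did so was not tested.

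The replicates stood in a similar order in most fast genes. The median of the fast list was -0.48 in replicate 1, -1.13 in replicate 2, -0.83 in replicate 3, -0.92 in replicate 4, -0.93 in replicate 5 and -1.16 in replicate 6. Each of the 9 fast genes that fell was nearest to 0 in replicate 1, and 8 of them were farthest from 0 in replicate 2 or 6. In replicate 1 these 9 genes lay between -0.86 and -0.027, in replicate 2 between -1.34 and -0.41, and in replicate 6 between -1.63 and -0.44. Of all 27 genes that fell, 17 were nearest to 0 in replicate 1. The median over all genes and probes lay between -0.103 and 0.141 in the 6 replicates, and its value in replicate 1, 0.079, was inside the range of the others.

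Genes with more than 1 probe gave a check on the averages. There were 13 such members, 12 of them tested in eye, and no pair of probes differed by over 1 on the log2 scale. The widest gap was 0.893 for Myl1, whose probes read -0.74 ± 0.22 and 0.15 ± 0.11 (SD, n = 6 each). Only the first of these passed on its own, so the mean of Myl1 joins probes of opposite sign. The 3 probes of Atp2a2 all lay above 0, at 0.16 ± 0.20, 0.27 ± 0.23 and 0.83 ± 0.16 (SD, n = 6 each), and only the third passed. The rise of Atp2a2 therefore rests mainly on 1 probe. Of the 3 probes of Tpm2, -0.93 ± 0.25 and -0.86 ± 0.21 passed and -0.08 ± 0.17 did not (SD, n = 6 each). For Tpm1 the probe at -0.50 ± 0.17 passed and that at -0.18 ± 0.37 did not (SD, n = 6 each). Both probes passed for Ryr1, at -1.15 ± 0.33 and -1.39 ± 0.91, for Tcap, at -1.32 ± 0.38 and -0.61 ± 0.23, and for Tnnt3, at -0.75 ± 0.25 and -0.91 ± 0.25 (SD, n = 6 each). Some genes without a call held a probe that passed. One probe of Mybpc1 had -0.51 ± 0.27, one of Myl12a -0.64 ± 0.17, one of Myl6 -0.40 ± 0.13 and one of Tpm3 -0.26 ± 0.17 (SD, n = 6 each), while the others of these genes did not pass. What the probes cover within the transcripts is not given in the sources used here.

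**Figure D2:**
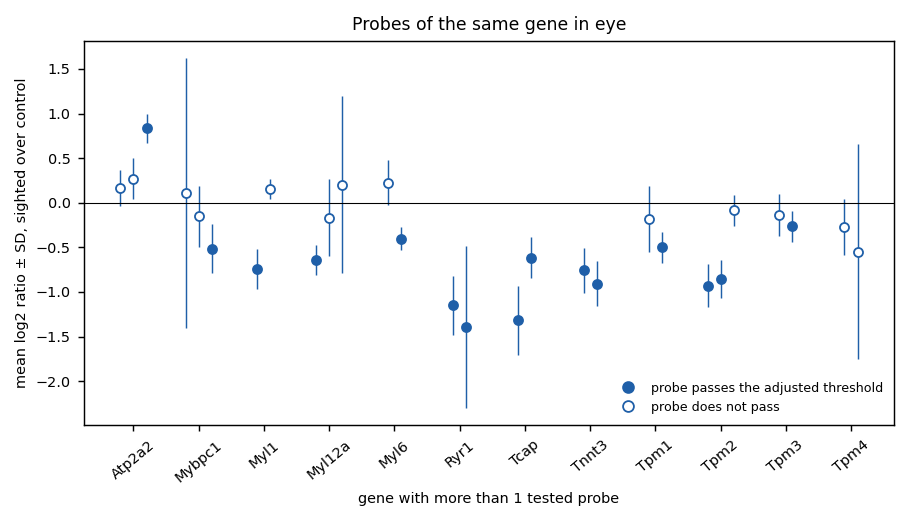
Mean log2 ratio of sighted over control RNA in eye with 1 SD (vertical axis) for each probe of the 12 tested genes that have more than 1 tested probe. Filled points pass an adjusted p of 0.05 with each probe tested alone, open points do not, and Myl1, Atp2a2 and Tpm2 are among the genes that hold both kinds.

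The size of the fall differed with the dye. Over the 27 genes that fell the median was -0.37 on arrays with sighted RNA in Cy5 and -0.996 on arrays with sighted RNA in Cy3, and 25 of the 27 were nearer to 0 with Cy5. The median over all genes was 0.273 with Cy5 alone and -0.216 with Cy3 alone, so it moved in the same direction. The gap was not equal from gene to gene. Myh14 had -0.02 with Cy5 and -1.26 with Cy3, Actc1 -0.48 and -0.88, and Mybph -0.93 and -0.75. With Cy5 arrays only, 10 members were called lower and 4 higher, the added gene being Myl3 at 0.29 with a limma adjusted p of 0.0404. Over everything tested in that orientation, 6580 of 16301 genes and probes were called in either direction. Of the 30 called genes 17 lost their call with Cy5 arrays only. These were Actn4, Casq1, Des, Mb, Mybph, Myh11, Myh14, Myl1, Myl4, Myoz2, Pln, Tnnc1, Tnni1, Tnni3, Tnnt3, Tpm1 and Tpm2. With Cy3 arrays only, Myl3 was called lower, at -0.50 with an adjusted p of 0.0112 in limma. In that orientation 31 members were called lower and 1 higher, and Atp2a2 and Pvalb lost their call. Over everything tested with Cy3 arrays only, 3947 of 16311 genes and probes were called in either direction. Among the 30 called genes only Myl1 and Tpm1 changed sign in one orientation, to 0.013 and 0.019 with Cy5. Leaving out a single replicate ended the call of 6 genes that fell: Des without replicate 5 or 6, Mybph and Myl1 without replicate 4, Myl4 without replicate 2, 4 or 5, Myoz2 without replicate 6 and Pln without replicate 3, 4 or 5. Their means then lay between -0.84 and -0.29, and the limma adjusted p between 0.0506 and 0.0728. Leaving out a replicate also brought the call of 5 genes that had none, all below 0. These were Mybpc1 without replicate 6, Myl12a without replicate 2, Myl7 without replicate 3, and Tnnt1 and Tpm4 without replicate 1, with means between -0.58 and -0.28 and limma adjusted p between 0.0148 and 0.0494. When single arrays were fitted, Tnnt1 was called too, at -0.36 with an adjusted p of 0.0226 in limma with the pair of opposite dye as a random block. Averaging both orientations, as in every value above, cancels a dye effect that is equal on both kinds of array.

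**Figure D3:**
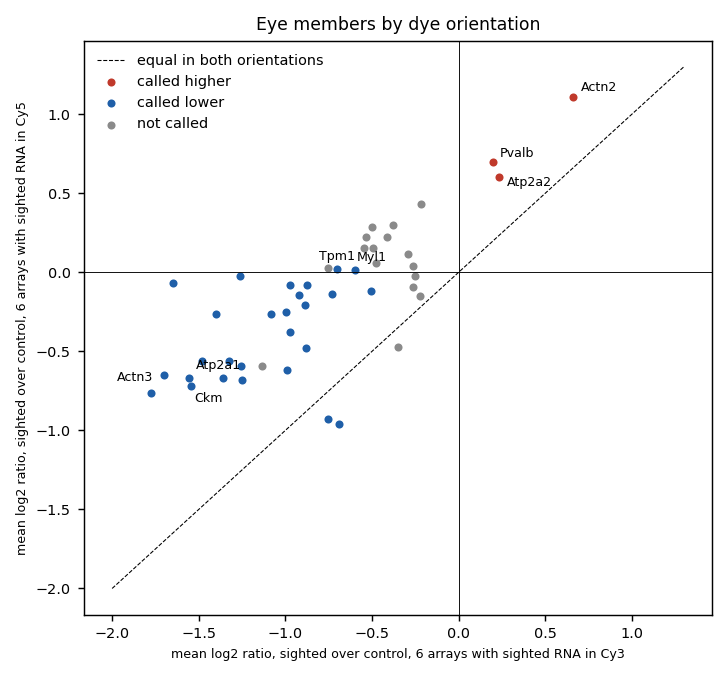
Mean log2 ratio of sighted over control RNA of the 46 tested members on the 6 eye arrays with sighted RNA in Cy3 (horizontal axis) and on the 6 with sighted RNA in Cy5 (vertical axis), with 1 point per gene. Nearly all points lie above the dashed line of equality, and the 27 genes called lower have a median of -0.37 with Cy5 and -0.996 with Cy3.

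Other muscle genes outside the symbol search were read from 6 textbook lists, of which 50 genes were tested in eye: 25 fell and 5 rose, with a median of -0.39. In excitation-contraction coupling 5 of 9 fell and 0 rose, among them Asph, which gives rise to junctional proteins of the calcium store, at -0.62 ± 0.17, Srl, the calcium-binding sarcalumenin, at -0.76 ± 0.31, and Jph2, a junctophilin that holds membrane junctions together, at -0.76 ± 0.40 (SD, n = 6 each). In myofibril assembly and turnover 9 of 16 fell and 2 rose. Fbxo32, the ubiquitin ligase atrogin-1 of muscle wasting, fell at -1.75 ± 0.79, Smyd1, a methyltransferase needed for myosin assembly, at -0.67 ± 0.27, and Tmod4, a tropomodulin that caps thin filaments, at -0.58 ± 0.15 (SD, n = 6 each). The genes that rose there were Csrp3, the muscle LIM protein, at 0.42 ± 0.18, and Cryab, a small heat shock protein of lens and muscle, at 0.29 ± 0.24 (SD, n = 6 each). In muscle metabolism 9 of 12 fell and 0 rose, with a median of -0.57. Examples are Ckmt2, the mitochondrial creatine kinase of striated muscle, at -0.79 ± 0.24, Car3, a carbonic anhydrase of slow muscle and fat, at -0.80 ± 0.26, and Cox8b, a muscle subunit of cytochrome oxidase, at -0.51 ± 0.13 (SD, n = 6 each).

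Membrane and junction genes showed fewer calls. Of 5 genes of the dystrophin complex and membrane only Dag1, the dystroglycan gene, fell, at -0.42 ± 0.12 (SD, n = 6). Of 5 genes of the neuromuscular junction 0 fell and Chrng, the fetal subunit of the acetylcholine receptor, rose at 0.81 ± 0.61 (SD, n = 5). Of 3 myogenic regulators Mef2c and Mef2d, both MEF2 factors that act in muscle, neurons and other cells, rose at 0.79 ± 0.27 and 0.53 ± 0.16, and Myog, myogenin, fell at -0.54 ± 0.22 (SD, n = 6 each). These counts, too, stand beside 11% lower and 15.9% higher among all genes tested.

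Markers of other cell types of the eye also moved in sighted eyes. All 9 tested genes of cornea and surface epithelium fell, with a list median of -1.06 and replicate medians between -1.53 and -0.75, and the keratin gene Krt15 had -0.86 ± 0.12, the transketolase gene Tkt -1.01 ± 0.26 and Krt14 -1.06 ± 0.33 (SD, n = 6 each). All 3 tested blood genes fell, with replicate medians between -1.85 and -0.70, led by Alas2 at -1.22 ± 0.47, the band 3 gene Slc4a1 at -0.43 ± 0.13 and the globin Hba-a1 at -1.96 ± 1.05 (SD, n = 6 each). Of 6 fat genes 4 fell, with replicate medians between -0.76 and -0.29, among them Car3, the fatty acid carrier Fabp4 at -0.70 ± 0.22 and the lipid droplet gene Cidec at -0.58 ± 0.23 (SD, n = 6 each). Of 6 smooth muscle genes 3 fell, Myh11, Smtn and the smooth muscle actin Actg2 at -0.70 ± 0.16, and Mylk, the myosin light chain kinase, rose at 0.41 ± 0.19 (SD, n = 6 each).

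Connective tissue did not move in that direction. Of 8 genes of fibroblasts and tendon 0 fell, and Tnmd, a tendon membrane protein, rose at 0.65 ± 0.41 (SD, n = 6). The list had a median of 0.03, with replicate medians from -0.52 to 0.48. Of 8 lens genes 7 rose and Crybb3 fell, with a list median of 0.56 and replicate medians between 0.02 and 0.89. The crystallins Crybb2, at 1.34 ± 0.42, and Cryba4, at 0.67 ± 0.42, were higher, and Crybb3 had -0.55 ± 0.17 (SD, n = 6 each). All 7 rod genes rose, with replicate medians between 4.36 and 4.89. Their sign is not a result, because rod genes set the direction of the ratio. The largest values were 6.45 ± 0.20 for Guca1b and 5.35 ± 0.14 for the rod arrestin Sag, and Cdhr1 had 3.88 ± 0.13 (SD, n = 6 each). Of the atrial markers Myl4 fell and Myl7 was not called, and of 3 markers of parvalbumin neurons Pvalb rose, Gad1, which makes GABA, fell at -0.31 ± 0.18 and Gad2 had 0.01 ± 0.20 (SD, n = 6 each). The part of these other tissues in the muscle values was not tested.

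**Figure D4:**
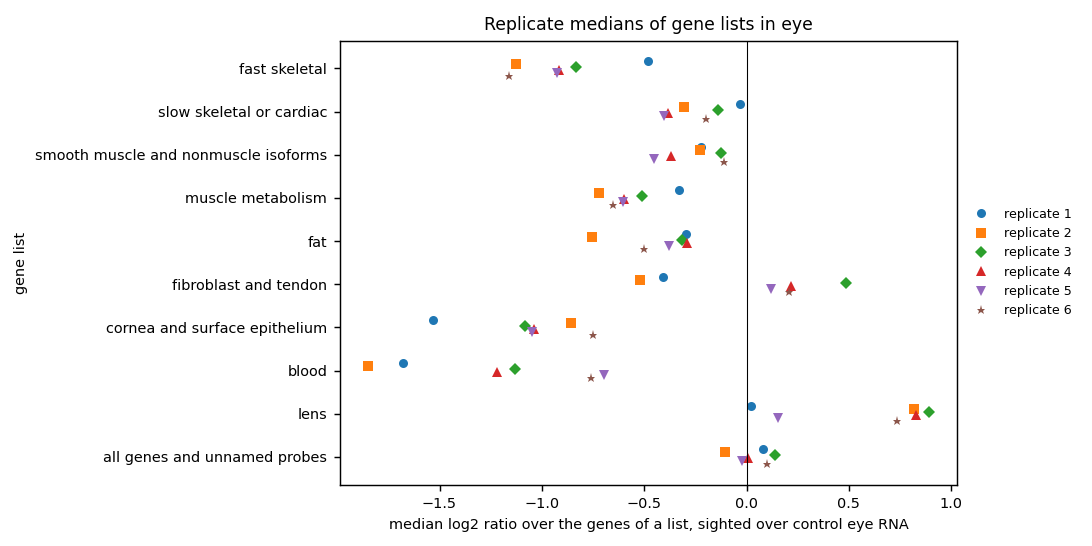
Median log2 ratio over the genes of a list (horizontal axis) in each of the 6 eye replicates, for fast, slow or cardiac and smooth or nonmuscle members and for lists of other tissues. The fast list is nearest to 0 in replicate 1 at -0.48, where the cornea list is farthest from 0 at -1.53, and the lens list is low in replicates 1 and 5.

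In sighted brains none of the 46 tested members was called, and 3 had an unadjusted p under 0.05. Over the whole brain comparison limma called 1 of 16112 genes and probes, or 0.00621%, and 657 had an unadjusted p under 0.05. The members lay between -0.36 and 0.21 with a median of 0.0092, and their lowest adjusted p was 0.959. The 26 tested genes that fell in eye had a median of 0.0039 in brain, with 15 above 0. Over everything tested in brain the median was -0.0035, and 7806 of 16112 were above 0. Myh7 had the smallest p, with 0.14, 0.10, 0.17, 0.13, 0.27 and 0.02 and a mean of 0.14 ± 0.08 (SD, n = 6). Ryr1 had 0.05, 0.07, 0.29, 0.24, 0.13 and 0.07, with a mean of 0.14 ± 0.10 (SD, n = 6). Both were small and above 0 in every replicate, as was Myh10. Each replicate averages both dyes, however. Myh7 had 0.72 with sighted RNA in Cy5 and -0.44 with Cy3, whereas Ryr1 was above 0 with either dye, at 0.22 and 0.06. Tpm1 had -0.02, -0.07, -0.27, 0.00, -0.64 and -0.47, with a mean of -0.24 ± 0.26 (SD, n = 6). Mybpc1 had -0.24, -0.09, 0.00, 0.04, -1.05 and -0.64, with a mean of -0.33 ± 0.43 (SD, n = 6). In Tpm1 and Mybpc1 replicates 5 and 6 carried most of the negative mean. The genes that rose in eye were near 0 in brain, with -0.07 ± 0.10 (SD, n = 6) for Actn2, 0.07 ± 0.11 (SD, n = 6) for Atp2a2 and -0.07 ± 0.17 (SD, n = 6) for Pvalb.

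In sighted hearts none of the 43 tested members was called either, against 0% of 12755 genes and probes over the whole heart comparison, of which 1042 had an unadjusted p under 0.05. Among the members 3 did. The members lay between -1.08 and 0.53 with a median of 0.079, their lowest adjusted p was 0.568, and 12 were above 0 and 4 below 0 in every measured replicate. The count of members with 1 sign in every replicate has no matching count over all genes and probes. Pln had the smallest p, with 0.62, 0.64, 0.45 and 0.39 in the 4 replicates. All were above 0, with a mean of 0.53 ± 0.13 (SD, n = 4), but the adjusted p of 0.568 in limma did not pass. By dye, Pln had -0.07 with sighted RNA in Cy5 and 1.12 with Cy3. Tcap had 0.38, 0.53, 0.23 and 0.39, with a mean of 0.38 ± 0.12 (SD, n = 4). Actn3 had -0.06, -0.34, -0.53 and -0.47, with a mean of -0.35 ± 0.21 (SD, n = 4). Both kept 1 sign in every replicate. By dye, Tcap had 0.06 with sighted RNA in Cy5 and 0.71 with Cy3, while Actn3 changed sign, with 0.13 and -0.83. Myh14 was measured in replicates 1 to 3 only, at -1.61, 0.07 and -1.70, and did not keep 1 sign. Genes of the cardiac sarcomere had no call, among them Myl2 at 0.17 ± 0.05 (SD, n = 4), Myh7 at 0.11 ± 0.07 (SD, n = 4), Actc1 at 0.24 ± 0.21 (SD, n = 4), Tnnt2 at 0.34 ± 0.18 (SD, n = 4) and Mybpc3 at 0.00 ± 0.11 (SD, n = 4). By dye, Myl2, Actc1 and Tnnt2 were above 0 in either orientation. Myh7 changed sign, with 0.66 in Cy5 and -0.45 in Cy3, as did Mybpc3, with 0.057 and -0.054. The 23 tested genes that fell in eye had a median of 0.13 in heart, with 14 above 0. Of all 43 members 28 had a mean above 0. Over everything tested in heart the median was -0.013, and 6167 of 12755 were above 0. Of the 43 members 36 had values in all 4 replicates, and leaving out any replicate, replicate 4 with its missing values included, gave 0 calls again.

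The difference between organs was tested directly by a t test on the limma means, with the moderated variance of each organ kept separate. Adjustment was over the genes and probes measured in both organs. Between eye and brain 24 of 44 members differed, 21 lower and 3 higher in eye, against 18.4% of all 15499 genes and probes, 7.14% lower and 11.3% higher. Actn2 had the smallest p, with means of 0.89 in eye and -0.07 in brain. Its difference was 0.96 ± 0.09 (SE), at an adjusted p of 1.26e-06 in this t test. Ckm had means of -1.13 in eye and 0.15 in brain, a difference of -1.28 ± 0.13 (SE). Actn3 differed by -1.19 ± 0.11, Mybpc2 by -1.01 ± 0.13 and Actc1 by -0.77 ± 0.09 (SE), with means of 0.01, -0.01 and 0.09 in brain. Pvalb and Atp2a2 were the other genes that were higher in eye, by 0.52 ± 0.10 and 0.35 ± 0.09 (SE). For these 21 and 3 members the value in eye therefore differed from that in brain beyond the replicate spread. The eye pool came from other control males than the pool of brain and heart. A difference between organs thus cannot be told apart from a difference between the control pools, here and against heart.

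Between eye and heart 15 of 42 members differed, 14 lower and 1 higher in eye, against 4.64% of all 12547 genes and probes, 2.02% lower and 2.61% higher. Ckm had means of -1.13 in eye and 0.22 in heart and Tcap of -0.97 in eye and 0.38 in heart, and both differences were -1.35, with SE of 0.16 and 0.17. Tnni2 differed by -1.17 ± 0.16, Tnnc2 by -1.15 ± 0.20 and Mybpc2 by -0.94 ± 0.17 (SE). Actn2 was the 1 gene that was higher in eye, by 0.85 ± 0.16 (SE). This comparison rests on few heart replicates: 0 members were called without heart replicate 1, 3 without replicate 2, 6 without replicate 3 and 10 without replicate 4. With the replicate number as a block 3 of the 15 remained, Ckm, Tcap and Tnni2, with adjusted p of 0.0333, 0.0403 and 0.0489 in limma.

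**Figure D5:**
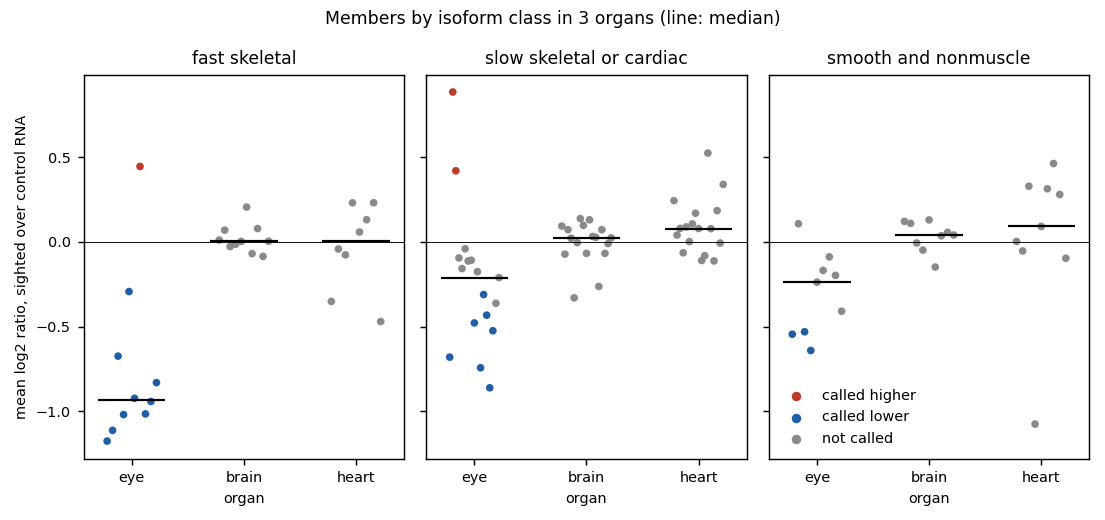
Mean log2 ratio of sighted over control RNA (vertical axis) in eye, brain and heart, with 1 point per member, for fast skeletal, slow skeletal or cardiac, and smooth or nonmuscle isoforms. The black line is the median, which for fast isoforms is -0.93 in eye and near 0 in brain and heart. Called genes occur in eye only. Tpm3, which the text counts in both other classes, is drawn with the smooth or nonmuscle isoforms only.

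Among 8174 named genes with a value in every eye replicate, those most like Actn2 were found by the root mean square distance of the 6 replicate values. Rufy3 was nearest at a distance of 0.077, followed by Mier2 at 0.079, Cd5 at 0.084, Mmd2 at 0.090 and Ahcyl1 at 0.091. Their mean log2 ratios were 0.86, 0.83, 0.90, 0.89 and 0.87, beside 0.89 for Actn2.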

How the data were processed

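Total RNA was turned into cDNA and labelled by an indirect method, per the labels' protocols. The authors deposited log2 ratios within an array. How these were background-corrected, normalized and scaled is not stated in the sources at hand. Medians of arrays ran from -0.061 to 0.535 in eye, from 0.002 to 0.1 in brain and from 0.034 to 0.217 in heart, so centring was not uniform, and the direction rests on rod genes. The number of arrays limits the precision. The dyes came from the labels. For brain array 3 they give Cy5 on each channel, and its sighted RNA was taken as the Cy5 one. For brain array 5 the sample is called only sighted. A value above 15 that an array repeated at least 5 times was a ceiling, and 4170 such values on 31 arrays were set to missing.

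Arrays whose sighted RNA carried Cy3 had their sign reversed. Arrays of opposite dye with consecutive numbers were averaged per probe when both had a value. The pairing was read from the array numbers, since the labels do not state it, and its consensus correlation was -0.114 in eye, 0.0156 in brain and -0.0426 in heart. Probes of a gene were averaged, and a gene could miss 1 replicate. Of 20794 probes 12771 had 1 symbol and 8023 had none, and the 66 member probes matched RefSeq gene IDs with 0 symbols changed. The mean was tested against 0 with limma 3.58.1 in R 4.3.3, two-sided, with Benjamini-Hochberg adjustment over all genes and unnamed probes at 0.05. Differences between organs used the moderated variance of each organ and Satterthwaite degrees of freedom. Brain and heart share control mice. The tests were checked on simulated data.

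Members and lists were chosen with earlier results of these data known. Values of every replicate are given for up to 10 called members with the largest change each way and 1 sign in every replicate, for the member with the smallest p and the uncalled one with the largest p in each role group, for the 4 members with the smallest p in brain and in heart, and for probes over 1 apart, of which there were 0. The text also gives, per organ difference, the 5 members of smallest p, and up to 3 called genes per other list. Other members and probes, the pairs of relatives and the promoters were picked after their values were seen. Alternatives were centred arrays, single arrays, 1 dye orientation, ceiling values kept, no missing replicate, single probes, removal of the most variable 20% of genes, robust moderation, a shared spread, a replicate block and each replicate left out. Columns of samples left unmapped numbered 0.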

Additional observations from a re-analysis of the deposited data

Results flagged for a closer look

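Among 53 sets of replicate values of a named gene in an organ, 4 held a replicate far from the others by Dixon's criterion, which chance meets in about 1 of 20 sets. Mybpc1 in eye had 0.903 in replicate 6, while the others lay between -0.51 and -0.096. Myh14 in eye had -0.3065 in replicate 3, with the others between -0.79 and -0.66. Myl6 in eye had 0.228 in replicate 6, with the others between -0.19 and -0.12. Pln in eye had 0.0545 in replicate 1, with the others between -0.47 and -0.32.

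A test of the difference between organs marked further values, given as the mean in eye minus the mean in the other organ. Against brain these were 0.96 for Actn2, -1.28 for Ckm, -1.19 for Actn3, -0.77 for Actc1 and -1.01 for Mybpc2. Against heart they were -1.35 for Ckm, -1.35 for Tcap, -1.17 for Tnni2, -1.15 for Tnnc2 and -0.94 for Mybpc2.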

How the results depend on the processing

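The 27 lower and 3 higher genes of the eye were recounted under each alternative. Leaving out a replicate gave 23 to 29 lower and 3 to 3 higher in eye, 0 called in brain and in heart, 22 to 27 between eye and brain, and 0 to 16 between eye and heart. With sighted RNA in Cy5 only, 10 were lower and 4 higher in eye and 2 were called in brain. With Cy3 only, 31 were lower and 1 higher in eye and 6 were called in brain. Over everything tested in eye, 6580 of 16301 were called with Cy5 only and 3947 of 16311 with Cy3 only. For brain no matching count over all genes and probes in a single orientation is at hand, so the brain counts cannot be weighed against it. A single orientation does not cancel dye effects by construction.

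Whether equal replicate numbers in different organs stand for the same animal could not be decided. Deviations of samples with the same number correlated at -0.018 to 0.015 between eye and brain and at -0.047 to 0.036 between eye and heart. Of these samples 0 correlated best with their own number. Even the assumed dye pairs had consensus correlations only from -0.114 (eye) to 0.0156 (brain), so a shared animal might leave no correlation here. With the number as a replicate block, 24 members differed between eye and brain and 3 between eye and heart.

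Signs changed with Cy5 only in eye for Casq2 (0.22), Mybpc1 (0.22), Mybpc3 (0.30), Myl1 (0.013), Myl12b (0.16), Myl2 (0.039), Myl3 (0.29), Myl6 (0.12), Tnnt1 (0.029), Tnnt2 (0.058), Tpm1 (0.019) and Tpm3 (0.15), in brain for Tpm1 (0.011), and in heart for Actn3 (0.13) and Pln (-0.067). With Cy3 only they changed for Myh10 in eye (-0.22) and Myh7 in brain (-0.44). For brain and heart this list covers only the 4 members with the smallest p in each. Other members there changed sign between the dyes too, among them Tpm2 in brain and Tnnt3 in heart. Single probes turned Mybpc1 (0.11), Myl1 (0.15), Myl12a (0.20) and Myl6 (0.23), and Mybpc3 lay between -0.079 and 0.051 over the eye replicates left out, above 0 without replicate 2. The cause was not tested. Signal over background is not in the deposited ratios, so its limit cannot be given.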
